A study of Mus musculus with 9 samples.

Results

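Mitochondrial ribosomal protein genes were followed in the olfactory bulb of mice that had inhaled linalyl acetate, a volatile ester of lavender oil. They were taken as every probe set of the array that carries 1 gene symbol starting with Mrpl or Mrps and a number, which gave 75 genes among 21367 probe sets with 1 symbol. Of the 75, 47 have Mrpl symbols (large subunit) and 28 have Mrps symbols (small subunit), and each was read by 1 probe set. No gene among them passed the Benjamini-Hochberg adjustment over all genes in any comparison. The smallest unadjusted p-values belonged to Mrps10, whose mean was 1.55-fold lower after 1% linalyl acetate than after vehicle, and Mrpl35, whose mean was 1.64-fold lower after 10% than after 1%. Both genes were singled out with these values known, so the values describe them and test nothing.

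Male ICR mice, an outbred stock, 8 weeks old and housed singly, were exposed for 7 days by whole-body inhalation from an aroma diffuser. The 3 groups inhaled 1% Tween 80, a detergent that served as vehicle, or linalyl acetate at 1% or at 10%. After 30 min of inhalation the mice were hung by the tail and their immobility was scored. The labels do not state if Tween 80 was also present in the linalyl acetate aerosols. Bulb RNA was read on Clariom S arrays, 3 per group and 9 in all, in normalized log2 signal units. It is not stated that each sample came from 1 animal, so errors and p-values reflect differences among these samples, which may be technical. The design text of the series differs, naming another compound, a human cell line and a human array. Groups follow the sample titles. The descriptions of 5 samples (all 3 vehicle samples and replicates 1 and 2 of the 1% group) instead speak of oral and injected treatments, and 3 of these, among them that of vehicle replicate 3, name LPS, a bacterial endotoxin. Without these samples the 1% and 10% groups cannot be set against vehicle at all. Values without vehicle replicate 3 are given below for the family and for some of its named differences. They are not given for every named difference, nor for genes of the other lists.

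The mitochondrial ribosome translates the few proteins that mitochondrial DNA encodes, all of them subunits of the respiratory chain and of ATP synthase. Its RNAs come from mitochondrial DNA, while its proteins are encoded in the nucleus, made in the cytosol and imported. The small subunit decodes the messenger RNA and the large subunit forms the peptide bond, and both hold proteins shared with bacteria beside others found only in mitochondria. Neurons draw most of their ATP from the respiratory chain these proteins help to build.

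The promoters of 4 genes are shown because their expression values carry the descriptions below: Mrps10 and Mrpl35, which stood at the edges of the family, and Mrpl9 and Mrpl43, which lay outside the range of the vehicle arrays in every linalyl acetate array. Each is the RefSeq window of 300 bases, from 250 before to 50 after the annotated start, on the GRCm38.p6 assembly and on the strand of the gene. Capitals mark matches, on either strand, to any of 8 short motifs. Transcription factors of the ETS family, such as GABP, are known to bind at CCGGAAG, and the factors YY1 and NRF1 at ATGGCGGC and GCATGCGC. For SP1, a factor of many housekeeping promoters, the letters searched were GGGCGG. For NFY, which binds inverted or direct CCAAT boxes, they were that pentamer. The E-box of basic helix-loop-helix proteins was searched as CACGTG, and the cAMP response element as TGACGTCA. The TATA box, the binding place of the TATA-binding protein, was searched as TATAAA. Overlapping matches were kept. The windows lie at chr17:47368947-47369246 on the plus strand (Mrps10), chr6:71823735-71824034 on the minus strand (Mrpl35), chr3:94443086-94443385 on the plus strand (Mrpl9) and chr19:45006393-45006692 on the minus strand (Mrpl43).
Mrps10: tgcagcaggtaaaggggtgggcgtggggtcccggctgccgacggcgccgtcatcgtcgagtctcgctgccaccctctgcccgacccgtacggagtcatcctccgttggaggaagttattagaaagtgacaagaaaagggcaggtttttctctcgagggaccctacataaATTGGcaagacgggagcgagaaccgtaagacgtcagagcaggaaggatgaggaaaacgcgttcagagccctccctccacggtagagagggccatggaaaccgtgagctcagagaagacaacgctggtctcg
Mrpl35: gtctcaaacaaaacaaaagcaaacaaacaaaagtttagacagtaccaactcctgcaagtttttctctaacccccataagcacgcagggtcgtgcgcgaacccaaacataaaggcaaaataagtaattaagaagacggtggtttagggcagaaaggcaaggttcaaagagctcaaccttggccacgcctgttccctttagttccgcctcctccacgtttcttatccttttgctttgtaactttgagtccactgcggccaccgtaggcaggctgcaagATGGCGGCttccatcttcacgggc
Mrpl9: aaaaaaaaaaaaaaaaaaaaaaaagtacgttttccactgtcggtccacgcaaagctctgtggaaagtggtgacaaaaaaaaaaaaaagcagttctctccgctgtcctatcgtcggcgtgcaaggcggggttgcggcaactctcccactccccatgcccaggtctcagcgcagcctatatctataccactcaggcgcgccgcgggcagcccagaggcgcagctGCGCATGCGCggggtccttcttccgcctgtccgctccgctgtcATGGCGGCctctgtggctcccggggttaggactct
Mrpl43: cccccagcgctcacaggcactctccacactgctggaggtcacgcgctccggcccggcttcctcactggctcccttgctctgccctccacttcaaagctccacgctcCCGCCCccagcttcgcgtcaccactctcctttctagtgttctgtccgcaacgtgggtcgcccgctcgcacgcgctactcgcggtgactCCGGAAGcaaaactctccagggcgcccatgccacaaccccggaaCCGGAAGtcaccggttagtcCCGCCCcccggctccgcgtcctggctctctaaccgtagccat
The Mrps10 window held 1 of these matches, the reverse complement of the NFY motif at position −81 from the start. The Mrpl35 window held 1 match to the YY1 motif, beginning 26 bases after the start, and the Mrpl9 window held another 15 bases after the start, along with overlapping NRF1 matches on both strands at −28 and −26. The Mrpl43 window held ETS matches at −56 and −12 and SP1 matches on the opposite strand at −144 and 8. A match shows that the letters are present in the window and nothing about binding.

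The arrays were first checked for what else differed between them. Of 18 olfactory bulb markers listed, 17 were measured and 16 of these lay above the median signal of all genes, with array means of 12.6 to 13.6. Cortical markers, 17 genes on 18 probe sets, averaged 9.72, 10.01 and 10.85 in the vehicle arrays, 9.96, 10.86 and 10.12 in the 1% arrays, and 9.62, 10.91 and 9.90 in the 10% arrays. Vehicle replicate 3, 1% replicate 2 and 10% replicate 2 thus stood apart, 1 array in each group, called cortex-rich below, and they also had the lowest bulb marker means of their groups. Cortical means were higher than vehicle in 15 of 18 probe sets at 1% and 11 at 10%, and lower at 10% than at 1% in 13. Against vehicle, 1 probe set at each dose had an unadjusted limma p under 0.05, with a lower mean. The lowest differences were −2.09 at 1% and −2.29 at 10%. Blood vessel markers (endothelial genes with the mural cell genes Pdgfrb and Rgs5) were at lower means than in vehicle in 8 of 8 genes at both doses. Their array means were 9.04 to 9.31 in vehicle, 8.63 to 8.78 at 1% and 8.38 to 9.28 at 10%. An unadjusted limma p under 0.05 was reached by 3 of the 8 at 1% and by 1 at 10%. Of all genes, 1.67% and 1.71% were called lower in these comparisons. Microglial markers were also at lower means in 8 of 8 at both doses, at 9.04 to 9.28 in vehicle, 8.52 to 9.23 at 1% and 8.41 to 9.12 at 10%. Oligodendrocyte markers were at lower means in 8 of 8 at 10% than at 1% (median −0.21) and in 7 of 8 than in vehicle, at array means of 11.5 to 12.2 in vehicle, 11.8 to 12.2 at 1% and 11.2 to 11.9 at 10%. Sensory neuron markers lay at 7.51 to 8.08 in vehicle, 7.18 to 7.65 at 1% and 7.61 to 8.06 at 10%. Their means were higher at 10% than at 1% in 9 of 10 and lower at 1% than in vehicle in 9 of 10. Between doses 4 of them had an unadjusted limma p under 0.05, where 1.72% of all genes were called higher. At 1%, 1 of them had, where 1.67% were called lower. Markers of ensheathing glia lay at 11.2 to 11.9 in vehicle, 11.2 to 11.7 at 1% and 11.4 to 11.9 at 10%. Their means were lower at 1% than in vehicle in 7 of 8 and higher at 10% than at 1% in 7 of 8, with no such p. The part of any of these in the results below was not tested. In bulk tissue, fewer cells of a type and less RNA per cell cannot be told apart.

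Mean signals of the family ran from 4.91 (Mrpl54 at the low end) to 12.7 (Mrpl48, a protein of the central protuberance of the large subunit), with a median of 9.17, and 64 of 75 genes lay above the median of all genes, 6.94. Signals of different probe sets are not levels that can be ranked against each other. The median standard deviation within groups was 0.221 log2 units, against 0.258 for all genes, and 50 of the 75 lay below the latter. Among genes above the median signal it was 0.217 for 64 family members and 0.248 for all genes. The median 95% interval of a difference between groups reached 0.423 to either side.

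The first comparison asked how 1% linalyl acetate differed from vehicle. Means were higher in 47 genes and lower in 28, or 62.7% higher against 50.3% of all genes, with a median log2 difference of 0.09 against 0.00 for all genes. In limma, 0 members passed the adjusted threshold, as did 0% of all genes (lowest adjusted p 0.998). An unadjusted p under 0.05 was reached by 1 gene with a higher mean, Mrpl35, and by 2 with lower means, Mrps10 and Mrpl43, where 1.76% and 1.67% of all genes were called in those directions. Groups did not overlap in 11 genes (14.7%), 7 higher and 4 lower, against 9.22% of all genes. For 71 of the 75 genes the 95% interval lay within a 2-fold change either way.

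The second comparison set 10% linalyl acetate against the same 3 vehicle arrays. Means were higher in 35 genes and lower in 39, or 46.7% higher against 51.4% of all genes, with a median of −0.03 against 0.01. Again 0 members passed the adjusted threshold in limma, as did 0% of all genes. An unadjusted p under 0.05 was reached by Mrps26, Mrpl9 and Mrpl17 with higher means and by Mrpl43 and Mrpl34 with lower means, where 2.06% and 1.71% of all genes were called. Groups did not overlap in 12 genes (16%), 6 in each direction, against 7.46% of all genes. The 95% interval lay within a 2-fold change for 71 genes.

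The third comparison set the doses against each other. The 10% mean was higher in 34 genes and lower in 41, or 45.3% higher against 50.5% of all genes, with a median of −0.02 against 0.00. Of the members, 0 passed the adjusted threshold in limma, as did 0% of all genes. Unadjusted p-values under 0.05 belonged to Mrpl35, Mrps31, Mrpl34 and Mrps17, 4 genes, all lower at 10%. Across all genes, 1.72% were called higher and 1.29% lower. Groups did not overlap in 8 genes (10.7%), 1 higher and 7 lower, against 7.1% of all genes, and the 95% interval lay within a 2-fold change for 73. A limma F test over the 3 groups gave an unadjusted p under 0.05 for Mrps10, Mrpl35, Mrpl43 and Mrps26, 4 of 75, against 2.95% of all genes, and 0 after adjustment.

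**Figure D1:**
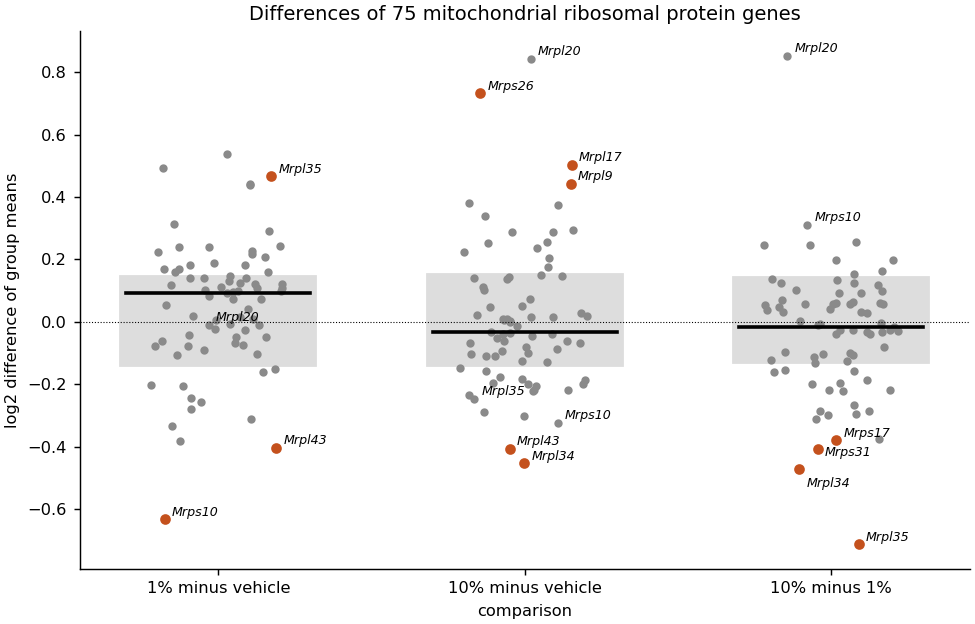
Log2 differences of group means for the 75 genes in the 3 comparisons (points, spread sideways for legibility). Orange points have an unadjusted limma p under 0.05, black bars are the medians over the 75 genes (0.09, −0.03 and −0.02), and grey boxes span the middle quartiles of all 21367 genes. Mrps10 is lowest in the first comparison at −0.63 and Mrpl35 lowest in the third at −0.71.

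In the authors' deposited table, 3 members had a p under 0.05 at 1%, against 3.41% of all genes, and 5 at 10%, against 3.76%. By the authors' criterion, which adds a fold change over 2, it called 0 members at either dose, against 0.225% and 0.211% of all genes.

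Of the 2 subunits, genes with Mrps symbols had higher means than vehicle in 19 of 28 at 1% and in 10 of 28 at 10%, with medians of 0.10 and −0.05. Genes with Mrpl symbols had medians of 0.05 and 0.01. Sorted by where the protein sits, the 15 small subunit proteins shared with bacteria had higher means in 11 at 1% and 5 at 10% (medians 0.10 and −0.06), and the 10 found only in mitochondria in 6 and 4 (0.09 and −0.01). The 29 conserved large subunit proteins had higher means in 18 and 16 (medians 0.10 and 0.02), and the 20 mitochondrial ones in 11 and 9 (0.01 and −0.05). In this sorting Mrps30 and Mrps18a, which sit in the large subunit in spite of their names, count there, and Mrps36, since assigned to the oxoglutarate dehydrogenase complex, counts in neither. These medians lie well inside the spread of single differences, and no difference between classes was tested. The vehicle arrays are shared by both comparisons, so the values at the doses are not independent, and 27 members were of opposite sign at the doses.

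Mrps10 (probe set TC1700000912.mm.2) encodes a protein of the head of the small subunit, related to bacterial S10. Its log2 signal was 9.07, 9.34 and 9.12 in the vehicle arrays, 8.67, 8.58 and 8.38 in the 1% arrays, and 8.73, 8.87 and 8.96 in the 10% arrays. All 6 linalyl acetate arrays lay below all vehicle arrays, and the 1% arrays lay below the 10% arrays. Group means were 9.18 ± 0.14, 8.54 ± 0.15 and 8.85 ± 0.12 (SD, n = 3). The difference from vehicle was −0.63 ± 0.16 (SE) at 1%, with a 95% interval from −0.99 to −0.28, and −0.32 ± 0.16 at 10%, and the doses differed by 0.31 ± 0.16. Mrps10 was the lowest of the 75 genes at 1%, where the other 73 apart from Mrpl35 ran from −0.40 (Mrpl43) to 0.54 (Mrps26). It was singled out with these values known, so they describe it and test nothing. The 1% difference ran from −0.70 to −0.55 over 21 alternatives and kept an unadjusted p under 0.05 in limma in each. These refit the arrays that singled it out, or part of them, and test nothing further. The 1% difference was −0.66 without vehicle replicate 3 and −0.68 without the 3 cortex-rich arrays.

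Mrpl35 (TC0600002473.mm.2) encodes a large subunit protein with a bacterial relative, L35. Its signal was 9.20, 9.12 and 8.96 in vehicle, 9.79, 9.25 and 9.64 at 1%, and 8.65, 9.20 and 8.69 at 10%. The 1% arrays lay above the other 6, with 1% replicate 2 the nearest to them, and the 10% arrays overlapped with vehicle. Means were 9.09 ± 0.12, 9.56 ± 0.28 and 8.85 ± 0.31 (SD, n = 3). The doses differed by −0.71 ± 0.21 (SE), with a 95% interval from −1.16 to −0.26, and the difference from vehicle was 0.47 ± 0.21 at 1% and −0.25 ± 0.21 at 10%. Like Mrps10 it was singled out with its values known. The difference between doses ran from −1.05 to −0.60 over the 21 alternatives, which refit the same arrays or part of them and test nothing further. It kept an unadjusted p under 0.05 in limma in each. The difference at 1% no longer did so without vehicle replicate 1 (0.52), 2 (0.48) or 3 (0.40) and without 1% replicate 1 (0.35) or 3 (0.43). Without the 3 cortex-rich arrays, 10% against vehicle was −0.49 and reached an unadjusted p under 0.05. Leaving out vehicle replicate 3 gave −0.31, 10% replicate 1 gave −0.15 and 10% replicate 2 gave −0.42.

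In 4 genes, every linalyl acetate array lay outside the range of the vehicle arrays, on the same side at both doses: Mrps10, Mrpl43, Mrpl9 and Mrps26. Across all genes, 2.08% lay outside the vehicle range at both doses, a share counted without asking for the same side. The comparisons at both doses share their vehicle arrays.

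Mrpl43, a large subunit protein found only in mitochondria, had signals of 7.21, 7.22 and 7.17 in vehicle, 6.72, 6.84 and 6.83 at 1%, and 6.68, 6.70 and 7.00 at 10%. The vehicle arrays lay close together and above the other 6. The differences were −0.40 ± 0.16 (SE) and −0.41 ± 0.16 (−0.42 and −0.42 without vehicle replicate 3), or 0.00 between doses, where the sign turned with several arrays left out. The unadjusted p moved above 0.05 at 1% without vehicle replicate 1 (−0.40) or 2 (−0.39) or 1% replicate 1 (−0.37). At 10% it was lost without vehicle replicate 1 (−0.40) or 2 (−0.40) or 10% replicate 1 (−0.35) or 2 (−0.36). Without the 3 cortex-rich arrays it was lost at both doses (−0.44 and −0.38).

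Mrpl9, a conserved large subunit protein, had signals of 8.33, 8.53 and 8.58 in vehicle, 8.76, 8.74 and 8.81 at 1%, and 9.17, 8.81 and 8.79 at 10%. The 10% group overlapped with the 1% group, with 10% replicate 1 apart from both. The difference was 0.29 ± 0.17 at 1% and 0.44 ± 0.17 at 10%, whose unadjusted p was above 0.05 after leaving out vehicle replicate 1 (0.37) or 10% replicate 1 (0.32). Without vehicle replicate 3 the differences were 0.34 and 0.49.

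Mrps26, a small subunit protein found only in mitochondria, had signals of 9.47, 9.17 and 9.44 in vehicle, 9.60, 9.81 and 10.28 at 1%, and 10.23, 10.51 and 9.54 at 10%. The highest array of each linalyl acetate group lay far above its lowest. The difference was 0.54 ± 0.26 at 1% and 0.73 ± 0.26, or 1.66-fold, at 10% (0.58 and 0.77 without vehicle replicate 3). At 1% its unadjusted p came below 0.05 without 1% replicate 1 (0.69), 10% replicate 2 or 10% replicate 3 (both 0.54), with array weights (0.57) and in a fit to those groups alone (0.54), and without 1% replicate 3 the difference was 0.345. Its unadjusted p at 10% exceeded 0.05 when vehicle replicate 2 (0.64), 10% replicate 1 (0.67), 10% replicate 2 (0.53) or the 3 cortex-rich arrays (0.57) were left out.

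**Figure D2:**
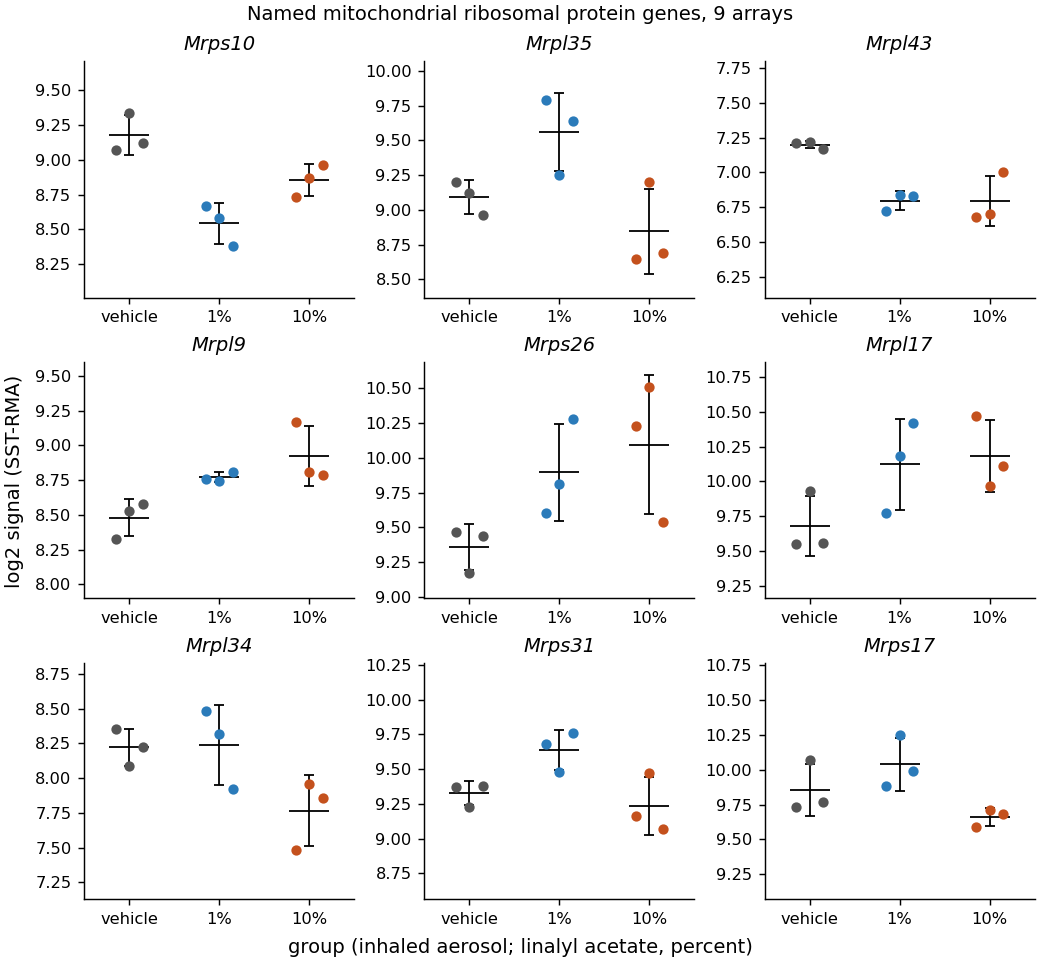
Log2 signal of 9 genes in the 9 arrays, 1 panel per gene; points are arrays and the bars the group mean ± SD (n = 3). Panels have the same height on the log2 scale but different positions. The 3 vehicle arrays of Mrps10 lie above all 6 linalyl acetate arrays, and those of Mrps26 lie below them.

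The remaining genes with an unadjusted p under 0.05 reached it at 10%, against vehicle or against 1%. Mrpl17, a conserved large subunit protein, had signals of 9.55, 9.93 and 9.56 in vehicle, 9.77, 10.18 and 10.42 at 1%, and 10.47, 9.97 and 10.11 at 10%. Vehicle replicate 2 was above 1% replicate 1, so that comparison overlapped while the 10% one did not. The difference was 0.44 ± 0.22 (SE) at 1% and 0.50 ± 0.22 at 10%. At 1% its unadjusted p came below 0.05 without vehicle replicate 2 (0.57) or 1% replicate 1 (0.62), and without 1% replicate 3 the difference was 0.295. At 10% it was not below 0.05 with array weights (0.46), nor without vehicle replicate 1 (0.44) or 3 (0.44), 10% replicate 1 (0.36) or 3 (0.54), or the 3 cortex-rich arrays (0.55).

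Mrpl34, another conserved large subunit protein, had signals of 8.35, 8.09 and 8.22 in vehicle, 8.48, 8.32 and 7.92 at 1%, and 7.48, 7.96 and 7.86 at 10%. The 10% arrays lay below vehicle but overlapped with the 1% arrays through 1% replicate 3. The 10% group differed by −0.45 ± 0.20 from vehicle and by −0.47 ± 0.20 from 1%. Against vehicle, its unadjusted p moved above 0.05 without vehicle replicate 1 (−0.39) or 3 (−0.45), 1% replicate 2 (−0.45), 10% replicate 1 (−0.31) or 3 (−0.50), or the 3 cortex-rich arrays (−0.55), and with array weights (−0.44). Against 1% it was lost without 1% replicate 1 (−0.35) or 2 (−0.43), 10% replicate 1 (−0.33) or those 3 arrays (−0.53), and in a fit to those groups alone (−0.47).

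Mrps31, a small subunit protein found only in mitochondria, had signals of 9.37, 9.23 and 9.38 in vehicle, 9.68, 9.48 and 9.76 at 1%, and 9.16, 9.47 and 9.07 at 10%. The 1% arrays were above both other groups, though 1% replicate 2 and 10% replicate 2 nearly met. The doses differed by −0.41 ± 0.17 (SE), and an unadjusted p under 0.05 was lost without 1% replicate 1 (−0.39) or 3 (−0.35) and without 10% replicate 1 (−0.37) or 3 (−0.33), and in a fit to those groups alone (−0.41). Mrps17, related to bacterial S17, had signals of 9.73, 10.07 and 9.77 in vehicle, 9.88, 10.25 and 9.99 at 1%, and 9.59, 9.71 and 9.68 at 10%. Its doses differed by −0.38 ± 0.17, at the edge of the threshold. The unadjusted p was above 0.05 after leaving out vehicle replicate 1 or 3 (both −0.38), 1% replicate 2 (−0.28) or 3 (−0.41), 10% replicate 1 (−0.35), 2 (−0.41) or 3 (−0.39), or the 3 cortex-rich arrays (−0.30). The same held in a fit to those groups alone (−0.38), with array weights (−0.36) and with the cortical marker mean as a covariate (−0.36). The 10% arrays of Mrps17 lay below every vehicle array and every 1% array.

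Genes without an unadjusted p under 0.05 when all arrays were used included Mrpl22, whose bacterial relative lines the exit tunnel. It had signals of 6.36, 5.99 and 6.61 in vehicle, 6.57, 6.98 and 6.73 at 1%, and 6.67, 6.65 and 6.31 at 10%, with a difference of 0.44 ± 0.20 (SE) at 1%. Its unadjusted p came below 0.05 without vehicle replicate 3 (0.59) or 1% replicate 1 (0.54) and with array weights (0.49), and without vehicle replicate 2 the difference was 0.28. Mrpl47, a protein of the tunnel exit, differed by −0.31 ± 0.17 at 1%, with vehicle arrays of 7.90, 7.79 and 8.20 and 1% arrays of 7.57, 7.86 and 7.53; without vehicle replicate 3 it was −0.19. Both sets of groups overlapped.

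The widest differences at 10% belonged to the most variable gene. Mrpl20, a conserved large subunit protein, had signals of 11.76, 10.45 and 12.43 in vehicle, 11.79, 10.75 and 12.07 at 1%, and 11.77, 12.32 and 13.08 at 10%. Its standard deviation within groups was 0.802, the largest of the 75, and the differences of 0.84 ± 0.50 (SE) from vehicle and 0.85 ± 0.50 from 1% did not reach an unadjusted p under 0.05 with all arrays. Against vehicle it came below 0.05 without vehicle replicate 3 (1.29) or the 3 cortex-rich arrays (1.32), and the difference was 0.295 without vehicle replicate 2 and 0.50 without 10% replicate 3. Against 1% it was 0.46 without 1% replicate 2 and 0.51 without 10% replicate 3, and with the cortex-rich arrays left out 0.495. Replicate 2 was lowest in the vehicle and 1% groups, and the 3 groups overlapped. Mrpl33 (SD 0.541), Mrpl55 (0.519) and Mrpl41 (0.411) came next. Mrpl55 owed its spread to 1% replicate 3, at 8.95 against 7.37 to 8.20 in the other arrays. Mrpl41 had 8.56, 8.72 and 8.75 in vehicle, 9.07, 9.23 and 9.21 at 1%, and 9.41, 9.43 and 8.21 at 10%. The 1% arrays were above vehicle by 0.49 ± 0.28 (SE), with an unadjusted p that came below 0.05 without 10% replicate 3 or in a fit to those groups alone (both 0.49), while 10% replicate 3 was the lowest of all 9 arrays. At the other end were Mrps14, with 9 arrays from 9.89 to 10.10 (SD 0.067), Mrpl50 from 9.63 to 9.96 (0.088) and Mrpl21 from 9.84 to 10.19 (0.09).

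**Figure D3:**
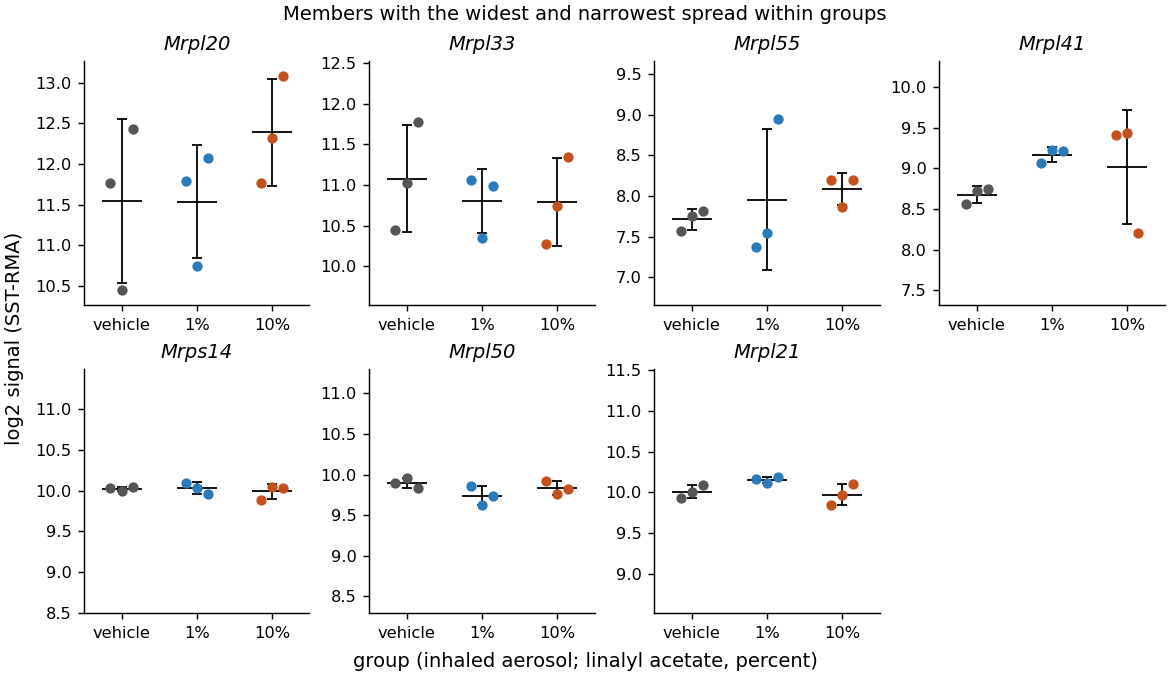
Log2 signal of the 4 genes with the largest and the 3 with the smallest SD within groups; points are arrays and bars the group mean ± SD (n = 3). All panels have the same height on the log2 scale. Mrpl20 spans 10.45 to 13.08, and the arrays of Mrps14 are nearly level.

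A few other members are given for their known roles, chosen after their values were seen. Mrpl12, a stalk protein that is also known to bind the mitochondrial RNA polymerase, had 9.71, 9.84 and 9.56 as group means for vehicle, 1% and 10%. Mrps12, a decoding protein, had 8.17, 8.08 and 7.96. Mrpl45, which tethers the ribosome to the inner membrane, had 9.24, 9.19 and 9.17, and Mrpl48 had 12.65, 12.69 and 12.66. None of these reached an unadjusted p under 0.05 in any comparison.

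The family was also followed array by array. Relative to each gene's mean over 9 arrays, the median member stood at −0.11, 0.02 and 0.02 in the vehicle arrays, −0.01, 0.07 and 0.07 in the 1% arrays and −0.11, 0.06 and −0.03 in the 10% arrays. Vehicle replicate 1 and 10% replicate 1 were lowest, with 26 and 25 of 75 genes above their own mean, and 1% replicate 3 highest, with 50. These 2 low arrays also had the lowest cortical marker means of their groups, and leaving out the 3 cortex-rich arrays gave medians of 0.04, −0.04 and −0.08. Without vehicle replicate 3 the medians against vehicle were 0.07 at 1% and 0.025 at 10%, so the sign of the latter turned. At 1% the median was 0.047 without vehicle replicate 1 or 1% replicate 2 and 0.043 without 1% replicate 3. At 10% it was −0.06 without vehicle replicate 1, 0.003 without vehicle replicate 2, 0.032, −0.07 and 0 without 10% replicates 1, 2 and 3. Between doses it was −0.058, −0.013 and −0.008 without 1% replicates 1, 2 and 3, and 0.015, −0.093 and −0.043 without 10% replicates 1, 2 and 3. The direction of the family median therefore turned with single arrays at 10%, against vehicle and against 1%, and kept its sign at 1% in these fits. On the same scale, Mrps10 stood at 0.21, 0.48 and 0.26 in vehicle, −0.19, −0.28 and −0.48 at 1% and −0.13, 0.01 and 0.10 at 10%. Mrpl35 stood at 0.03, −0.05 and −0.21, at 0.62, 0.08 and 0.47, and at −0.52, 0.03 and −0.48. The array with the smallest departure of Mrpl35 within each linalyl acetate group was its replicate 2, rich in cortical markers.

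**Figure D4:**
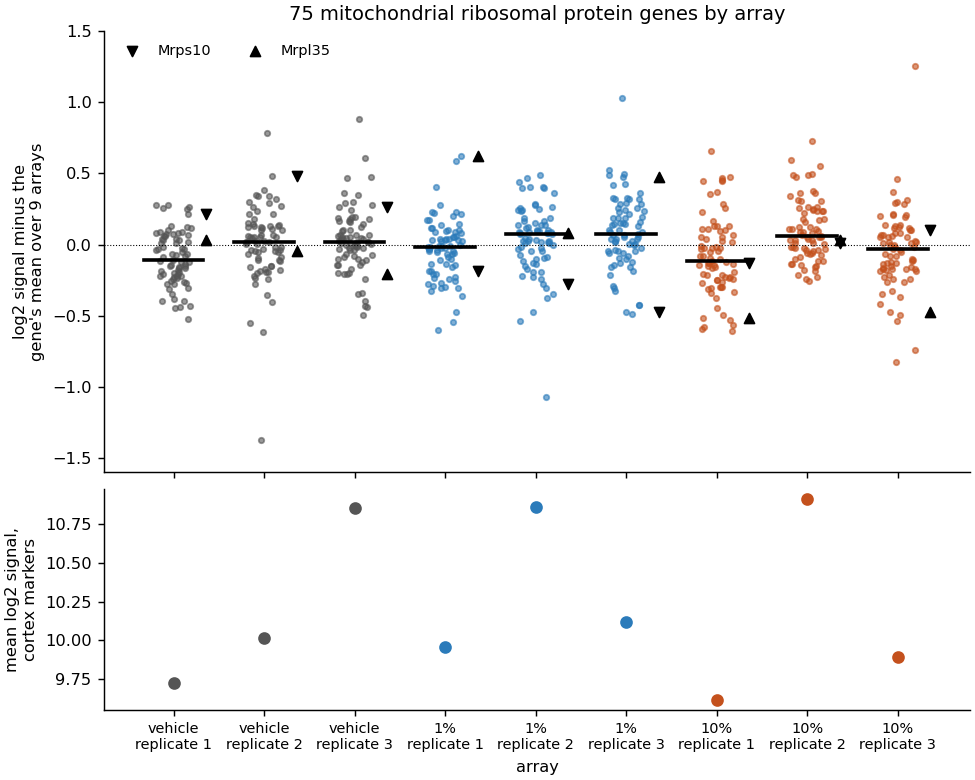
Top, log2 signal of the 75 genes minus each gene's mean over 9 arrays, with points for genes, bars for the median, and triangles for Mrps10 (pointing down) and Mrpl35 (pointing up). Bottom, mean log2 signal of the cortical markers per array, which is highest in vehicle replicate 3, 1% replicate 2 and 10% replicate 2 (10.85, 10.86 and 10.91).

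Cytosolic ribosomal protein genes, which build the ribosomes of the cytosol, were set beside the family. Of 70, 45 had higher means at 1% and 55 at 10%, against 50.3% and 51.4% of all genes, with medians of 0.08 and 0.10. An unadjusted p under 0.05 was reached by 0 and 1 of the 70, where 3.42% and 3.78% of all genes were called. The difference between these families was not tested.

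The rest of the mitochondrial translation machinery was described from listed genes. Of 6 ribosomal proteins without an Mrp symbol, Gadd45gip1, a protein of the tunnel exit, had 5.98, 6.37 and 6.08 in vehicle, 6.56, 6.49 and 6.60 at 1%, and 6.51, 6.49 and 6.46 at 10%. All 6 linalyl acetate arrays were above vehicle. The differences were 0.41 ± 0.16 (SE) at 1%, with an unadjusted p under 0.05, and 0.34 at 10%. In the same list Aurkaip1, of the small subunit, differed by −0.51 ± 0.23 at 10% and reached no such p, and the list medians were 0.01 and −0.04.

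A list of 14 genes held translation factors together with related genes such as Oxa1l, Letm1, Taco1 and Mtfmt. Of these 14, 13 had higher means at 1% and 9 at 10%, with medians of 0.11 and 0.16. Only 1, the release factor family member Mtrf1, reached an unadjusted p under 0.05, at 0.45 ± 0.20 (SE) and 10%. Tufm, the mitochondrial elongation factor Tu, was 0.36 above vehicle at 1% and −0.44 at 10% relative to 1%, neither below 0.05. Of 27 assembly factors, 13 had higher means at 1% and 12 at 10%, and 0 reached an unadjusted p under 0.05. Of 19 mitochondrial aminoacyl-tRNA synthetases, 5 had higher means at 1% and 12 at 10%. Sars2, which charges serine tRNA, reached an unadjusted p under 0.05 at 10%, at 0.37 ± 0.15. Of 14 regulators of mitochondrial gene expression and replication, Gabpb1, a subunit of GABP, differed by −0.33 ± 0.15 at 1%, and Polg, the mitochondrial DNA polymerase, by 0.52 ± 0.20 at 10%, each with an unadjusted p under 0.05. Beside these lists, 50.3% of all genes had higher means at 1% and 51.4% at 10%. An unadjusted limma p under 0.05 was reached by 3.42% and 3.78% of all genes at these doses. None of the listed genes passed the adjustment over all genes.

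The promoters of the family were then compared with others. RefSeq windows were matched for 66 of the 75 genes, 72 windows in all (63 genes had 1), against 18973 windows of the genes tested on the array and 32851 windows of all genes. The ETS motif CCGGAAG was found in 33.3% of family windows, 35% of 60 windows of cytosolic ribosomal protein genes, 11.7% of windows of genes on the array and 8.9% of all windows. The YY1 motif ATGGCGGC was found in 15.3%, 5.0%, 3.1% and 2.2% of these, and the NRF1 motif GCATGCGC in 11.1%, 5.0%, 3.7% and 2.7%. At least 1 of these 3 was found in 47.2% of family windows, 43.3% of those of cytosolic ribosomal protein genes, 16.9% of those of genes on the array and 12.7% of all. Of the other motifs, SP1 was found in 52.8% of family windows against 47.7% of windows of genes on the array and 35.7% of all. The shares for NFY were 40.3%, 37.6% and 37.4%, for the E-box 9.7%, 8.0% and 7.2%, for the cAMP response element 2.8%, 2.3% and 1.8%, and for the TATA box 6.9%, 12.1% and 13.6%.

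**Figure D5:**
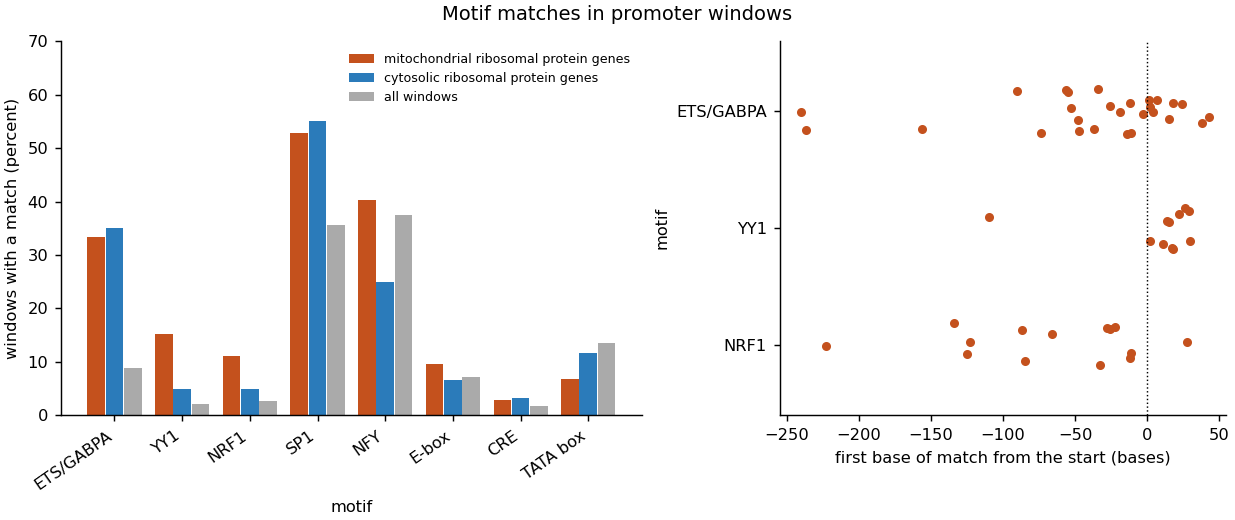
Left, percent of promoter windows with a match to each motif, in mitochondrial ribosomal protein genes, cytosolic ribosomal protein genes and all windows. Right, the first base of each match to 3 motifs in family windows relative to the annotated start (dotted line at 0). The YY1 matches gather just after the start, at a median of 17 bases.

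YY1 matches in the family were placed near the start, 10 of 11 in the stretch from −100 to 50, with the first base at a median of 17. ETS matches had a median of −19, with 24 of 27 in the same stretch, and NRF1 matches a median of −49.5, with 10 of 14. Positions in other windows were not counted, so a place near the start cannot be called particular to the family. The 34 genes with any of these 3 motifs had median differences of 0.10 at 1% and −0.04 at 10%, and the 32 without had 0.05 and −0.02. An unadjusted p under 0.05 was reached by 2, 5 and 2 of the former in the 3 comparisons and by 1, 0 and 2 of the latter. Across all genes, 3.42%, 3.78% and 3% were called in these comparisons, and the difference between genes with and without a motif was not tested.

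Several members share their promoter region with a divergent neighbour: 26 had another gene starting within 1000 bases on the opposite strand, and 23 of these neighbours were measured. The pairs named here were chosen after their values were seen. Mrpl46 and Mrps11, which start 42 bases apart, differed from vehicle at 1% by −0.24 and 0.21. Mrps12 and Sars2 start 147 bases apart and differed at 10% by −0.22 and 0.37. Mrpl43 starts 116 bases from Twnk, the mitochondrial replicative helicase, and the pair differed by −0.40 and 0.10 at 1% and by −0.41 and 0.23 at 10%. Mrpl40 and Hira, 113 bases apart, differed by −0.26 and 0.28 at 1%. All these pairs were of opposite sign, but others shared their sign at 1%. Mrpl41 and Pnpla7 differed by 0.49 and 0.28, Mrpl27 and Eme1 by 0.10 and 0.32, and Mrpl30 and Mitd1 by −0.20 and −0.16. Pairs of each kind were not counted. Of these, Mrpl43 and Sars2 alone reached an unadjusted p under 0.05, and the difference within a pair was not tested.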

How the data were processed

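The authors normalized the arrays with RMA and Transcriptome Analysis Console 4 and tested them with limma, per the submitters' processing notes. The axes of the gene panels label the same signal SST-RMA. For the genome build, the sources used here name none. The deposited signal table holds log2 values to 2 decimals, of which 27 cells, none in these genes, held dates and were decoded. The authors' deposited comparison tables hold a fold change with a sign (a score) and p-values. The authors' criterion was an unadjusted p under 0.05 with a fold change over 2.

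From the log2 signals, a limma 3.58.1 means model (R 4.3.3, statmod 1.5.0) was fitted to 21367 probe sets with 1 gene symbol, leaving out 836 with several and 3 with none. Contrasts were moderated, with 6 residual and 5.27 prior degrees of freedom, and p-values were adjusted over all genes (Benjamini-Hochberg). With 3 arrays a group, exact permutation p-values go no lower than 0.1, so none was run. The pipeline was tested on simulated data. Genes named were Mrps10 and Mrpl35, those with an unadjusted p under 0.05 (up to 5 per direction, otherwise the smallest p up to 3), those outside the vehicle range at both doses, the 4 most and 3 least variable within groups and, from other lists, those with the smallest p; not all are printed. Members and lists were chosen with earlier results of these data known. Motifs were searched in RefSeq promoter windows (Python 3.11.15, pandas 2.3.3, numpy 2.4.6, matplotlib 3.10.9). Alternatives were scalings (median, quantile), filters, variance models, fits to the groups compared alone, array weights, a replicate block, the cortical marker mean as a covariate, the deposited series matrix and left-out arrays.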

Additional observations from a re-analysis of the deposited data

How the results depend on the processing

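Of the 75 genes, 0 passed the adjustment in limma under any alternative run. The count of genes with an unadjusted p under 0.05 was 3 at 1%, 5 at 10% and 4 between doses. Fitted to the groups compared alone it was 5 at 1% and 1 between doses, with array weights 5 at 1% and 3 at 10%, without the 3 cortex-rich arrays 3 at 10%, and by the authors' criterion 0, 0 and 0. Leaving out 1 array gave 1 to 5 at 1% (1 without vehicle replicate 1), 0 to 5 at 10% (0 without 10% replicate 1, 1 without vehicle replicate 1) and 2 to 4 between doses; the cause was not tested. With the replicate number as a block the counts were 2, 4 and 3, and with it the unadjusted p of Mrpl35 at 1%, Mrpl17 and Mrpl34 at 10%, and Mrps31 and Mrpl34 between doses exceeded 0.05, while that of Mrpl20 at 10%, against vehicle and against 1%, fell below it. Deviations of same-numbered arrays correlated at −0.161 to 0.279, and an array correlated best with its own number in 4 of 18 cases. No pairing by number was seen in this check, which cannot exclude one. Leaving out 1 array moved the count of genes with higher means between 43 and 51 at 1%, 26 and 45 at 10%, and 24 and 40 between doses. Among the named differences recomputed, that of Mrpl43 between doses (0.00) alone changed sign, to 0.014 with array weights, to 0.065 without the 3 cortex-rich arrays, and over −0.107 to 0.053 when 1 array was left out. Without vehicle replicate 3, 7 genes of all passed the adjustment at 1% and 12 at 10%, none of them in the family. Without the 3 cortex-rich arrays the counts were 11 and 12, again with none in the family. The 3 arrays per group and the spread between them limit what can be seen: a difference under about 0.42 log2 units lay within the median 95% interval.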

Other observations

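Probe sets that carry an Mrp symbol beside another gene were outside the family as chosen and were not tested as members. The probe set of Ccdc142 and Mrpl53 averaged 8.14 in vehicle, 8.34 at 1% and 8.33 at 10%, in log2 signal. The probe set of Slc5a3 and Mrps6 averaged 10.08, 10.34 and 9.97, with arrays of 9.78, 10.29 and 10.18 in vehicle, 10.13, 10.58 and 10.32 at 1%, and 9.66, 10.15 and 10.11 at 10%. The groups overlapped in both, and neither can be read as the Mrp gene alone.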
